A study of Homo sapiens with 15 samples.

Results

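The genes described here are 56 genes of mitosis and the kinetochore, measured in K562 cells after 24 h of martinostat. They were chosen by gene symbol as a list of mitotic kinases, checkpoint, kinetochore, kinesin, condensin and cytokinesis genes, and all 56 were found among the 60649 genes of the count table and passed the filter on low counts, which left 23711 genes for testing. K562 is an established human line of chronic myeloid leukaemia, labelled here as bone marrow and as a myelogenous leukemia cell. Martinostat is an inhibitor of histone deacetylases (HDACs), the enzymes that remove acetyl groups from histones and other proteins. The 15 poly(A) RNA libraries form 5 groups of 3 biological replicates: untreated cells and cells given 0.15, 0.25, 0.5 or 1 µM martinostat, with every library coming from the same line. The labels do not say whether the replicates were separate cultures, so the p-values measure the spread between these libraries, which may in part be technical, and no solvent-only group is named.

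At the onset of mitosis, cyclin B and CDK1 together with the polo-like and aurora kinases drive chromosome condensation and spindle assembly. The kinetochore, built on centromeric chromatin marked by the histone variant CENP-A, attaches chromosomes to microtubules, and the spindle checkpoint holds back the anaphase-promoting complex until every chromosome is attached. Many of these genes are transcribed in G2 and M phase, and their promoters commonly carry CCAAT boxes and a cell cycle genes homology region (CHR), an element bound by the MuvB complex with its partners.

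Among the 49 members with a RefSeq promoter (GRCh38.p14), the letters of the CHR, TTTGAA or TTCGAA on either strand, were found within the 250 bases before the start in 26 (53.1%), against 17.2% of all 27305 genes with a promoter in the table. AURKA, BIRC5, BUB3, FOXM1, TPX2, TTK and UBE2C had no entry. A CCAAT box on either strand was found in 77.6% of these members and in 37.0% of all genes. The promoters of 4 members, the anaphase activator CDC20, the cyclin CCNB2, the proliferation antigen gene MKI67 and the separase gene ESPL1, are shown because they hold both elements close to the start, and because their genes responded to different extents. Each line gives the 120 bases before the start, 5′ to 3′ on the strand of the gene, with CHR and CCAAT letters of either strand in capitals.
CDC20: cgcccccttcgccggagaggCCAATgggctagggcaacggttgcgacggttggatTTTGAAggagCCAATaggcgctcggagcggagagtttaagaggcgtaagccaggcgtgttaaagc
CCNB2: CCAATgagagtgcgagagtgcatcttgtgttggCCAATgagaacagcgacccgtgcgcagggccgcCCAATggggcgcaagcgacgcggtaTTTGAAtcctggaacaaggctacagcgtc
MKI67: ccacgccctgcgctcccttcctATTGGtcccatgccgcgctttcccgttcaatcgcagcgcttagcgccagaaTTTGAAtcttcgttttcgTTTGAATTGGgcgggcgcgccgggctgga
ESPL1: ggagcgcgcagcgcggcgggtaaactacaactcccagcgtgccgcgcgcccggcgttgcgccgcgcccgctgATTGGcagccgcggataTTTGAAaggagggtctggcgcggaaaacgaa

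These windows lie at chr1:43358861-43358980 (plus strand), chr15:59105026-59105145 (plus strand), chr10:128126424-128126543 (minus strand) and chr12:53268179-53268298 (plus strand), each ending at the base before its RefSeq start. In MKI67 the second CHR and a CCAAT box read on the opposite strand share letters, since such short motifs can overlap. A match of this kind is a description of the letters only.

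In the count table the 15 libraries held 23755510 to 32805574 counts. Levels are given as CPM, the counts of a gene relative to the size of its library, with library sizes adjusted by TMM factors (trimmed mean of M values), and genes were compared with edgeR's quasi-likelihood test over all 15 libraries with Benjamini-Hochberg adjustment. A gene was called higher or lower at an adjusted p under 0.05, and the value after ± beside a log2 fold change is its standard error. Replicate 3 at 0.25 µM and replicate 3 at 0.5 µM stood apart on the third principal component (54.1 and 58.5, against 10.6 at most in the other 13 libraries), so the counts between neighbouring doses and the counts against untreated cells are also given without them. Untreated libraries carried the erythroid genes of the line (GATA1, TAL1, HBG1, HBG2, HBZ and TFRC), except HBE1 at 0.17 CPM, and the summed level of these 7 markers lay between 3057 and 3417 CPM. At 1 µM the sum was 838 to 970.2 CPM, with 5 of the 7 lower, HBE1 higher and HBG1 not called. Of 9 lymphoid, monocyte, stromal and epithelial markers, 3 were lower (CD3D, COL1A2 and EPCAM) and 2 higher (CD14 and COL1A1) at 1 µM and 2 were too low to test (MS4A1 and FCGR3A). MS4A1 had 0 to 4 counts in all libraries, and COL1A1 rose from 4.36 to 398 CPM. The summed level of these 9 went from 158 to 175 CPM untreated to 323 to 514 CPM at 1 µM, and its part in the results on mitotic genes was not tested. In such bulk libraries, fewer cells in mitosis and less RNA per cell cannot be told apart.

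Most mitosis and kinetochore genes were lower already at the lowest dose of martinostat. At 0.15 µM, 45 of the 56 members were called lower and 0 higher, with 0 higher also at an unadjusted p under 0.05 and with DESeq2. Over all genes tested, 19.4% were called lower and 31.9% higher at that dose. At 0.25 µM 47 members were lower and 0 higher, against 24.8% and 37.4% of all genes, and 0 members were higher at an unadjusted p under 0.05 or with DESeq2. At 0.5 µM 46 were lower and 1 higher (27.6% and 39.4% of all genes), and at 1 µM 45 were lower and 1 higher (27.5% and 38.8%). Without replicate 3 at both 0.25 and 0.5 µM, 52, 48, 46 and 47 were lower and 1, 0, 3 and 2 higher at the 4 rising doses. In the fit over all 15 libraries, 40 members were lower at all 4 doses and 5 were called at none. Over the members the median log2 fold change was -0.89, -1.19, -1.29 and -1.19 at the 4 rising doses, against 0.28, 0.32, 0.34 and 0.32 over all genes. Without both of those libraries the members' medians were -0.89, -1.10, -1.15 and -1.15.

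These shares depend on the level of the genes and on the scaling. Of the members, 53 averaged at least 10 CPM, and among the 10128 tested genes at that level 40.2% were lower at 0.15 µM and 48.4% at 1 µM. When libraries were scaled by their totals alone, the median of all genes moved to 0.64 at 0.15 µM and 0.67 at 1 µM, and that of the members to -0.52 and -0.84. On that scale 33 members were lower and 2 higher at 0.15 µM (8.93% and 40.4% of all genes), and 38 lower and 4 higher at 1 µM (20.1% and 45.6%). With TMM the median of the 10128 genes was -0.28 at 0.15 µM and -0.39 at 1 µM, below that of all genes tested, and the members' median lay 0.61 and 0.81 log2 units under it.

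Summed over the 56 members, the level was 9080 ± 463 CPM (SD, n = 3) in untreated cells. With rising dose it was 4971 ± 241, 4094 ± 589, 3988 ± 1119 and 4423 ± 423 CPM. As a share of all counts of a library, the members took 0.726% ± 0.0184 untreated and 0.452% ± 0.0447 at 1 µM. Every treated library lay below every untreated one on both measures, and the lowest was replicate 3 at 0.5 µM with 2708 CPM and 0.331%. Without the replicate 3 libraries the means of the remaining 2 were 4381 CPM at 0.25 µM and 4627 CPM at 0.5 µM.

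**Figure D1:**
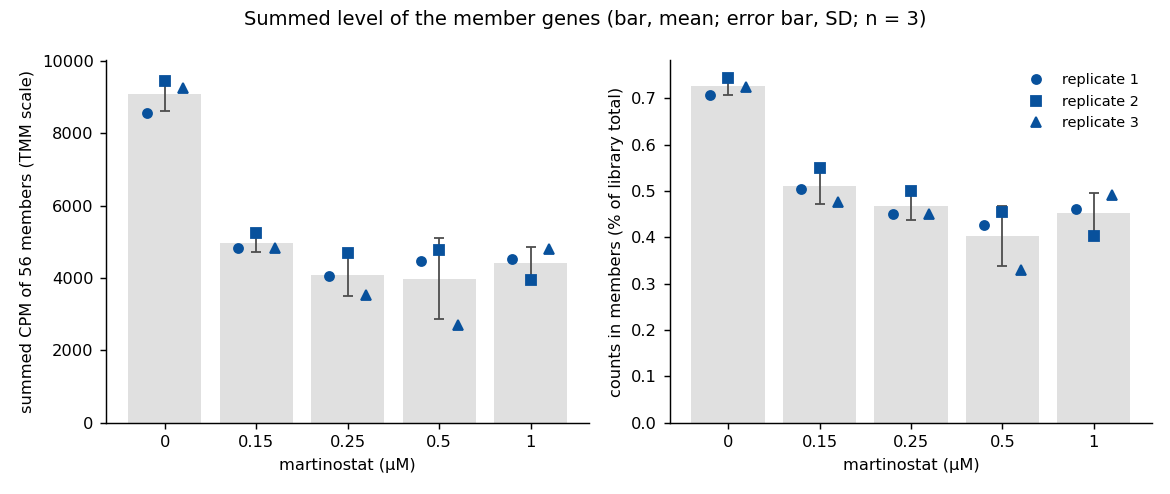
Summed TMM-scaled CPM of the 56 members (left) and their share of all counts of a library (right, %) against martinostat dose in µM. Bars are means, error bars SD (n = 3) and points single libraries. Untreated libraries lie between 8557 and 9438 CPM, all above the treated ones.

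The kinases and cyclins that start mitosis were among the most reduced. Of the 8 genes of this group, 6 were lower at 1 µM, and each of those 6 was also lower at 1 than at 0.15 µM. The call between these doses was lost in 8 of the 24 alternative settings for PLK4, DESeq2 and RLE size factors among them, and in 1 for CCNB2. CCNB1, cyclin B1, was the highest member per kilobase of exon in untreated cells, at 147 ± 11.0 CPM per kb (SD, n = 3), with CDC20 (146 ± 10.7) and the spindle factor TPX2 (138 ± 6.13) within its spread. CCNB1 stood at 333, 386 and 352 CPM in the untreated libraries, 135, 139 and 138 at 0.15 µM, 111, 134 and 84.7 at 0.25 µM, 89.8, 94.1 and 42.1 at 0.5 µM and 82.0, 79.5 and 88.1 at 1 µM. No treated library reached the untreated range, and the log2 fold change was -2.10 ± 0.23 at 1 µM (adjusted p = 2.16e-07). CDK1, the kinase that cyclin B activates, was at 160.1, 218 and 174 CPM in the untreated libraries, 122, 116 and 80.5 at 0.15 µM, 72.2, 94.2 and 73.3 at 0.25 µM, 58.0, 60.8 and 31.3 at 0.5 µM and 58.6, 51.2 and 60.5 at 1 µM. Its fall was -0.79 ± 0.22 on the log2 scale at 0.15 µM and -1.70 ± 0.22 at 1 µM (adjusted p = 0.00506 and 2e-06). The further fall from 0.15 to 1 µM, -0.90, was close in size to that at 0.15 µM. CCNB2, the other B-type cyclin, changed by -1.83 ± 0.23 at 1 µM.

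PLK1, the polo-like kinase of spindle and kinetochore assembly, had a falling mean up to 0.5 µM. Between neighbouring doses PLK1 was called lower only from 0.25 to 0.5 µM. It stood at 323, 330.5 and 385 CPM in the untreated libraries, 186, 179 and 173 at 0.15 µM, 117, 137 and 67.6 at 0.25 µM, 74.7, 83.2 and 34.9 at 0.5 µM and 79.4, 65.6 and 84.8 at 1 µM. PLK1 was 1.93-fold lower at 0.15 µM and 4.52-fold lower at 1 µM, and the step between them was -1.23 ± 0.27 (adjusted p = 0.00139). AURKA, the aurora kinase of centrosomes and spindle poles, had 95.9, 111 and 107 CPM in the untreated libraries, 31.4, 37.7 and 35.5 at 0.15 µM, 23.4, 33.7 and 19.7 at 0.25 µM, 20.8, 19.7 and 14.1 at 0.5 µM and 20.8, 19.8 and 21.5 at 1 µM. Here the larger part of the fall, -1.59 ± 0.18 of -2.34 ± 0.19 log2 units, was present at 0.15 µM. PLK4, which starts centriole duplication, changed by -1.68 ± 0.17 at 1 µM. The phosphatase genes CDC25B and CDC25C, whose products activate CDK1, were called at no dose. CDC25B was at 59.6, 58.6 and 73.1 CPM in the untreated libraries, 75.6, 72.5 and 87.5 at 0.15 µM, 69.5, 72.9 and 43.8 at 0.25 µM, 84.1, 94.6 and 44.9 at 0.5 µM and 93.9, 71.6 and 92.1 at 1 µM, with its 1 µM value 0.43 ± 0.23 (adjusted p = 0.112). On library totals CDC25B was called higher at 1 µM, one of 8 of the 24 alternative settings that did so. CDC25C averaged 22.3 CPM untreated and 25.8 at 1 µM (0.21 ± 0.38, adjusted p = 0.642). Its libraries at 0.15 µM (13.7, 12.1 and 15.5 CPM) all lay below the untreated ones (22.7, 21.8 and 22.2 CPM). CDC25C was called lower at 0.15 µM in 3 of the 24 alternatives. It was called higher at 1 than at 0.15 µM in 10, DESeq2, RLE size factors and the replicate block among them.

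All 5 spindle checkpoint genes were lower at every dose, and they differed widely in extent. MAD2L1 encodes Mad2, the protein that binds CDC20 while kinetochores are unattached, and it lies at chr4:120055623-120066858 (hg38, minus strand). MAD2L1 stood at 184, 204 and 189 CPM in the untreated libraries, 89.0, 79.9 and 72.3 at 0.15 µM, 36.7, 46.4 and 29.8 at 0.25 µM, 22.0, 23.3 and 10.7 at 0.5 µM and 22.5, 23.1 and 22.6 at 1 µM. MAD2L1 was 2.39-fold lower at 0.15 µM and 8.45-fold lower at 1 µM, the largest fall of the 56 members at 0.25, 0.5 and 1 µM (-3.08 ± 0.23 at 1 µM, adjusted p = 1.35e-09). The fall between 0.15 and 1 µM was -1.82 ± 0.22 (adjusted p = 2.48e-06) and also the largest of the members. BUB1, the checkpoint kinase that recruits other checkpoint proteins, had 361, 436 and 419 CPM in the untreated libraries, 203, 222 and 183 at 0.15 µM, 170.2, 228 and 183 at 0.25 µM, 190.3, 206 and 107 at 0.5 µM and 188, 165 and 209 at 1 µM. BUB1 averaged 405 CPM untreated, 203 at 0.15 µM and 187 at 1 µM, with a step of -0.11 ± 0.20 between them (adjusted p = 0.673). The ratio of MAD2L1 to BUB1 CPM within a library, which no scaling changes, was 0.476 ± 0.0310 untreated and 0.398 ± 0.0387, 0.194 ± 0.0276, 0.109 ± 0.00894 and 0.123 ± 0.0162 at the rising doses (SD, n = 3). This pair was chosen after its values were seen, and the ratios are given without a test.

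BUB1B, which encodes the checkpoint protein BubR1, was at 87.5, 98.6 and 88.4 CPM in the untreated libraries, 28.2, 37.8 and 35.9 at 0.15 µM, 24.1, 26.3 and 27.3 at 0.25 µM, 21.9, 20.2 and 15.4 at 0.5 µM and 24.3, 21.7 and 28.3 at 1 µM. It changed by -1.88 ± 0.16 at 1 µM, and 10.2% of its exon bases lie under another gene of the same strand, so its counts are uncertain to that extent. BUB3, the partner of BUB1 and BubR1, fell little at 0.15 µM (-0.49 ± 0.13) and by -1.21 ± 0.13 at 1 µM, a step of -0.71 ± 0.13 (adjusted p = 0.000137). Its 0.15 µM call was lost in 2 of the 24 alternatives, library totals among them, and its log2 fold change there ranged from -0.58 to -0.14 over the 24. TTK, the Mps1 kinase at the head of the checkpoint, changed by -0.91 ± 0.20 at 0.15 µM and -1.18 ± 0.21 at 1 µM.

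**Figure D2:**
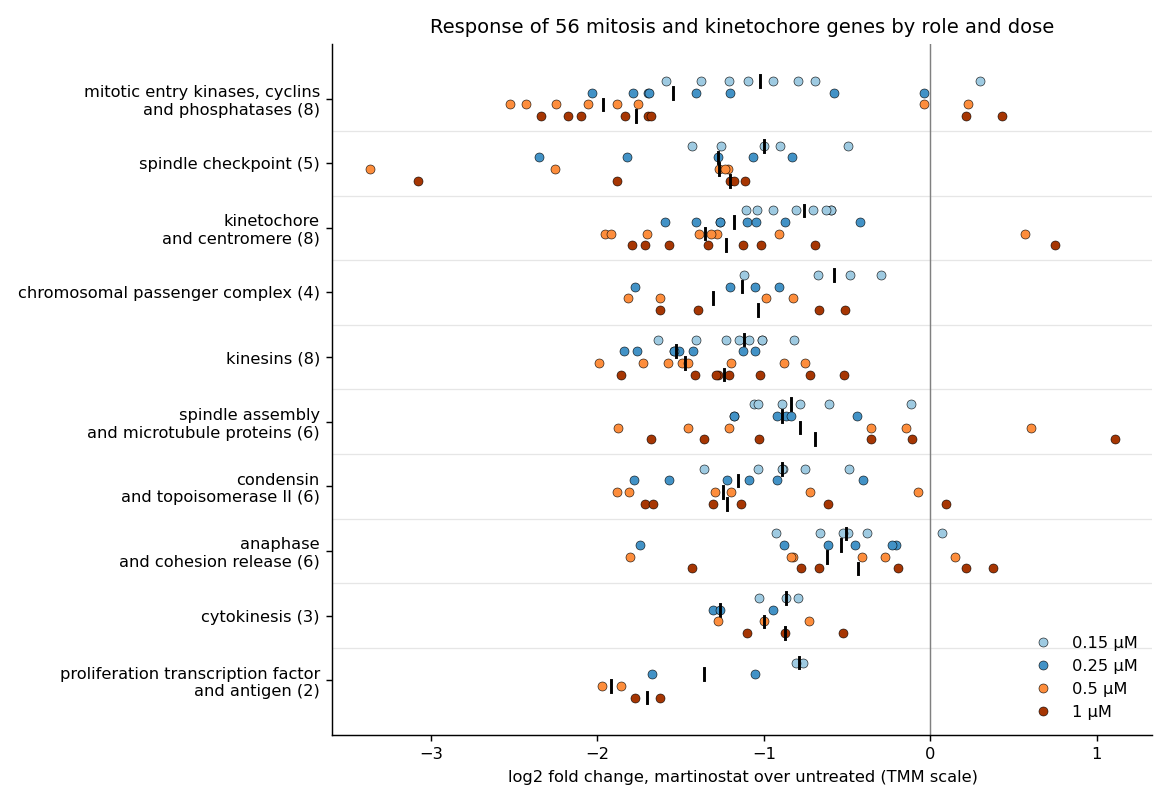
Log2 fold change of each member over untreated cells (x axis, TMM scale) by role group (y axis, number of members in brackets) and dose (colour). Points are genes and black ticks group medians. The checkpoint point at -3.37 is MAD2L1 at 0.5 µM, and the points above 0.5 are CENPI and NUSAP1, the latter with at most 27 counts in a library.

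Of the 8 kinetochore and centromere genes, 7 were lower at 1 µM and 1 was higher. The NDC80 complex, the microtubule-binding part of the outer kinetochore, has 4 subunits, and all 4 were lower at 0.25, 0.5 and 1 µM. NDC80 stood at 63.8, 85.6 and 79.5 CPM in the untreated libraries, 38.1, 38.7 and 34.4 at 0.15 µM, 28.1, 32.9 and 25.4 at 0.25 µM, 27.9, 27.5 and 15.1 at 0.5 µM and 24.6, 24.6 and 28.0 at 1 µM. At 1 µM NDC80 changed by -1.57 ± 0.19, NUF2 by -1.13 ± 0.19, SPC25 by -1.80 ± 0.25 and SPC24 by -1.71 ± 0.49 log2 units. SPC25, with the largest fall of the role group at 1 µM, had 65.6, 69.6 and 68.6 CPM in the untreated libraries, 43.0, 44.8 and 44.1 at 0.15 µM, 32.9, 33.7 and 18.5 at 0.25 µM, 22.6, 21.0 and 10.4 at 0.5 µM and 16.6, 22.3 and 19.8 at 1 µM. SPC24 was the least certain, with 0.242 as its adjusted p at 0.15 µM and 14.2 and 9.33 CPM in the replicate 3 libraries at 0.25 and 0.5 µM.

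CENPA, the centromeric histone, was at 38.3, 43.4 and 40.2 CPM in the untreated libraries, 25.6, 23.7 and 20.3 at 0.15 µM, 19.6, 24.3 and 13.0 at 0.25 µM, 21.5, 20.04 and 8.81 at 0.5 µM and 18.6, 21.5 and 20.2 at 1 µM. It changed by -0.81 ± 0.26 at 0.15 µM and -1.02 ± 0.26 at 1 µM (adjusted p = 0.0147 and 0.00229). CENPE, a kinesin that moves chromosomes to the spindle equator, stood at 97.3, 126 and 105 CPM in the untreated libraries, 63.1, 67.1 and 40.3 at 0.15 µM, 37.8, 70.9 and 70.5 at 0.25 µM, 61.7, 66.5 and 46.8 at 0.5 µM and 69.0, 58.9 and 75.2 at 1 µM. Its change was -0.95 ± 0.23 at 0.15 µM and -0.70 ± 0.23 at 1 µM, with no untreated library inside the treated range. The 1 µM call was lost in 5 of the 24 alternatives, library totals among them. CENPF, a large protein of the outer kinetochore, changed by -1.33 ± 0.22 at 1 µM.

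CENPI, a subunit of the constitutive centromere network at chrX:101098188-101166126 (hg38, plus strand), moved in both directions. CENPI stood at 42.9, 44.3 and 45.8 CPM in the untreated libraries, 30.7, 30.8 and 26.6 at 0.15 µM, 32.9, 38.6 and 27.7 at 0.25 µM, 77.1, 77.5 and 43.0 at 0.5 µM and 74.7, 67.1 and 81.4 at 1 µM. It was lower than untreated at 0.15 µM (-0.60 ± 0.19, adjusted p = 0.0122) and higher at 0.5 µM (0.57 ± 0.19, adjusted p = 0.0112) and 1 µM (0.75 ± 0.19, adjusted p = 0.00164). The 3 libraries at 0.15 µM lay below and the 3 at 1 µM above all untreated libraries, and the rise from 0.15 to 1 µM was 1.34 ± 0.19 (adjusted p = 1.13e-05). That rise and the 1 µM call held in all 24 alternative settings. At 0.5 µM replicate 3 lay within the untreated range, and the call there was lost without replicate 1 or without replicate 2. The fall at 0.15 µM was lost in 3, among them library totals, where it was -0.23. The ratio of CENPI to CENPA CPM within a library was 1.09 ± 0.0629 untreated, 1.27 ± 0.0600 at 0.15 µM and 3.73 ± 0.523 at 1 µM (SD, n = 3, a pair chosen after its values were seen).

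The chromosomal passenger complex corrects faulty attachments and prepares cytokinesis. Only CDCA8, the borealin subunit, was called lower at 0.15 µM among its 4 genes, and at 1 µM CDCA8, BIRC5 and INCENP were. CDCA8 stood at 181, 203 and 222 CPM in the untreated libraries, 89.1, 88.4 and 101 at 0.15 µM, 64.6, 72.6 and 40.2 at 0.25 µM, 61.5, 78.7 and 31.7 at 0.5 µM and 71.9, 55.2 and 69.4 at 1 µM. BIRC5, which encodes survivin, was at 271, 251 and 243 CPM in the untreated libraries, 132, 143 and 205 at 0.15 µM, 146, 120.3 and 64.8 at 0.25 µM, 114, 101 and 33.7 at 0.5 µM and 92.2, 109 and 88.7 at 1 µM. Its change was -0.67 ± 0.37 at 0.15 µM (adjusted p = 0.142) and -1.40 ± 0.37 at 1 µM (adjusted p = 0.00429), and the replicate 3 libraries at 0.25 and 0.5 µM were the lowest of their groups. INCENP, the scaffold of the complex, had 166, 162 and 147 CPM in the untreated libraries, 129.8, 129 and 128 at 0.15 µM, 87.7, 97.1 and 67.9 at 0.25 µM, 106, 107 and 54.9 at 0.5 µM and 120.3, 94.2 and 119 at 1 µM. It was 1.43-fold lower at 1 µM (adjusted p = 0.0313). That call was lost in 8 of the 24 alternatives, DESeq2, RLE size factors and library totals among them, and its log2 fold change ranged from -0.58 to -0.13.

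AURKB, the kinase of the complex, was at 90.5, 86.6 and 88.5 CPM in the untreated libraries, 58.6, 58.9 and 72.9 at 0.15 µM, 53.7, 51.8 and 22.8 at 0.25 µM, 54.0, 60.5 and 19.9 at 0.5 µM and 56.1, 56.4 and 54.2 at 1 µM. All treated libraries lay below the untreated ones, and the call was lower at 0.25 and 0.5 µM but not at 1 µM (-0.67 ± 0.34, adjusted p = 0.0988). The call at 0.25 µM was lost in 3 of the 24 alternatives, library totals and the fit without 0.25 µM replicate 3 among them. At 0.5 µM it was lost in 2. AURKB was called lower at 1 µM in 4 of the 24 alternatives, namely the fit on only the libraries compared and those without one or both of the replicate 3 libraries that stood apart. Its paralogue AURKA, given above, was 5.06-fold lower at 1 µM, against 1.59-fold for AURKB.

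All 8 kinesin genes were lower at all 4 doses. Over the 8 genes the median log2 fold change was -1.12, -1.53, -1.48 and -1.24 at the 4 rising doses. KIF18B and KIF23 were lower at 0.25 than at 0.15 µM and at 1 than at 0.15 µM, and KIF14 was higher at 1 than at 0.15 µM. The calls between 0.15 and 1 µM were lost in 6 of the 24 alternatives for KIF18B, 3 for KIF23 and 1 for KIF14. KIF11, the Eg5 motor that separates spindle poles, was at 144, 149 and 156 CPM in the untreated libraries, 75.6, 65.6 and 61.0 at 0.15 µM, 72.0, 78.2 and 55.9 at 0.25 µM, 89.4, 101 and 53.6 at 0.5 µM and 90.1, 82.5 and 99.3 at 1 µM. Its change was -1.15 ± 0.19 at 0.15 µM and -0.72 ± 0.19 at 1 µM, and the difference between them was 0.43 ± 0.19 (adjusted p = 0.073, edgeR). In 9 of the 24 alternatives, DESeq2 and RLE size factors among them, KIF11 was called higher at 1 than at 0.15 µM. KIF2C, a microtubule depolymerase at centromeres, stood at 214, 256 and 239.6 CPM in the untreated libraries, 104, 113 and 135 at 0.15 µM, 92.2, 103 and 69.7 at 0.25 µM, 95.7, 106 and 57.2 at 0.5 µM and 106, 92.6 and 109 at 1 µM. KIF23, the motor of the central spindle and midbody, had 95.4, 106 and 97.5 CPM in the untreated libraries, 37.6, 39.5 and 35.4 at 0.15 µM, 25.9, 29.3 and 28.2 at 0.25 µM, 26.0, 28.4 and 20.9 at 0.5 µM and 27.4, 24.2 and 31.0 at 1 µM, the largest fall of the kinesins at 1 µM (-1.86 ± 0.14). The largest at 0.15 µM was that of KIF20A (-1.64 ± 0.25), another central spindle motor.

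KIF14, a motor of cytokinesis, showed the smallest kinesin fall at 1 µM. It stood at 114, 105 and 111 CPM in the untreated libraries, 57.1, 60.0 and 47.2 at 0.15 µM, 43.9, 52.5 and 62.5 at 0.25 µM, 62.5, 69.7 and 64.3 at 0.5 µM and 77.8, 68.2 and 84.7 at 1 µM. KIF14 was lower at 0.15 µM (-1.01 ± 0.15), then higher at 1 than at 0.15 µM (0.49 ± 0.15, adjusted p = 0.00985), and remained below untreated at 1 µM (-0.52 ± 0.14, adjusted p = 0.00407). The 1 µM call was lost in 3 of 24 alternatives, library totals among them. KIF18A and KIF20B, which act on chromosome alignment and cytokinesis, changed by -1.28 ± 0.24 and -1.03 ± 0.17, and KIF18B by -1.29 ± 0.16.

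Spindle assembly and microtubule genes took different courses. TPX2, which activates aurora A on spindle microtubules, was at 473, 509 and 513 CPM in the untreated libraries, 189.9, 259.9 and 268 at 0.15 µM, 237, 243 and 181 at 0.25 µM, 207, 221 and 117 at 0.5 µM and 189.6, 181 and 211 at 1 µM. It was 2.08-fold lower at 0.15 µM and 2.57-fold lower at 1 µM. HMMR, a spindle and hyaluronan-binding protein, stood at 145, 178 and 157 CPM in the untreated libraries, 115, 111 and 89.1 at 0.15 µM, 80.5, 95.0 and 77.6 at 0.25 µM, 50.3, 51.0 and 29.5 at 0.5 µM and 47.8, 46.6 and 55.1 at 1 µM. HMMR was 1.52-fold lower at 0.15 µM and 3.21-fold lower at 1 µM (step -1.07 ± 0.18, adjusted p = 8.93e-05). CKAP5, the microtubule polymerase chTOG, had 446, 490.1 and 499 CPM in the untreated libraries, 253, 314 and 269 at 0.15 µM, 255, 289.6 and 259.7 at 0.25 µM, 391, 422 and 309 at 0.5 µM and 395, 315 and 412 at 1 µM. CKAP2, a microtubule-associated protein, was at 108, 145 and 138 CPM in the untreated libraries, 73.9, 82.1 and 54.5 at 0.15 µM, 69.2, 85.8 and 59.8 at 0.25 µM, 129, 139 and 84.5 at 0.5 µM and 128, 102 and 133 at 1 µM. Both were lower at 0.15 and 0.25 µM, higher at 1 than at 0.15 µM (0.43 ± 0.16 and 0.78 ± 0.20) and not called against untreated at 1 µM (adjusted p = 0.0506 and 0.651). At 1 µM the mean of CKAP5 was 78.2% of untreated and that of CKAP2 92.8%. CKAP5 was called lower there in 5 of the 24 alternatives, and its rise from 0.15 µM was lost in 3. DLGAP5, a spindle factor, changed by -1.03 ± 0.21 at 1 µM.

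NUSAP1 had 1 to 27 counts in a library (0.327, 0.154 and 0.47 CPM in the untreated libraries, 0.246, 0.388 and 0.241 at 0.15 µM, 0.237, 0.0358 and 0.401 at 0.25 µM, 0.309, 0.502 and 0.625 at 0.5 µM and 0.958, 0.484 and 0.628 at 1 µM), and 86.8% of its exon bases lie under other genes of the same strand. UBE2C, the ubiquitin-conjugating enzyme of the anaphase-promoting complex, had 0 to 18 counts, at 0.409, 0.232 and 0.274 CPM in the untreated libraries, 0.141, 0.212 and 0.344 at 0.15 µM, 0.0339, 0.286 and 0.451 at 0.25 µM, 0, 0.251 and 0.462 at 0.5 µM and 0.426, 0.345 and 0.418 at 1 µM, and shares no exon base with another counted gene. PRC1, the microtubule bundler of the central spindle, had 45 to 127 counts, and 57.6% of its exon bases are shared on its own strand and 34.3% on the other. These 3 genes were the only members below 200 counts on average, and the fraction of their transcripts that was counted is not known. In all, 19 members share exon bases with another counted gene, and NCAPG (33.7%), SMC4 (22.0%), FOXM1 (15.9%), SGO1 (15.8%) and PLK1 (12.8%) do so on the opposite strand for more than 10% of theirs. The strand setting of the counting is not stated, so these levels carry that uncertainty.

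**Figure D3:**
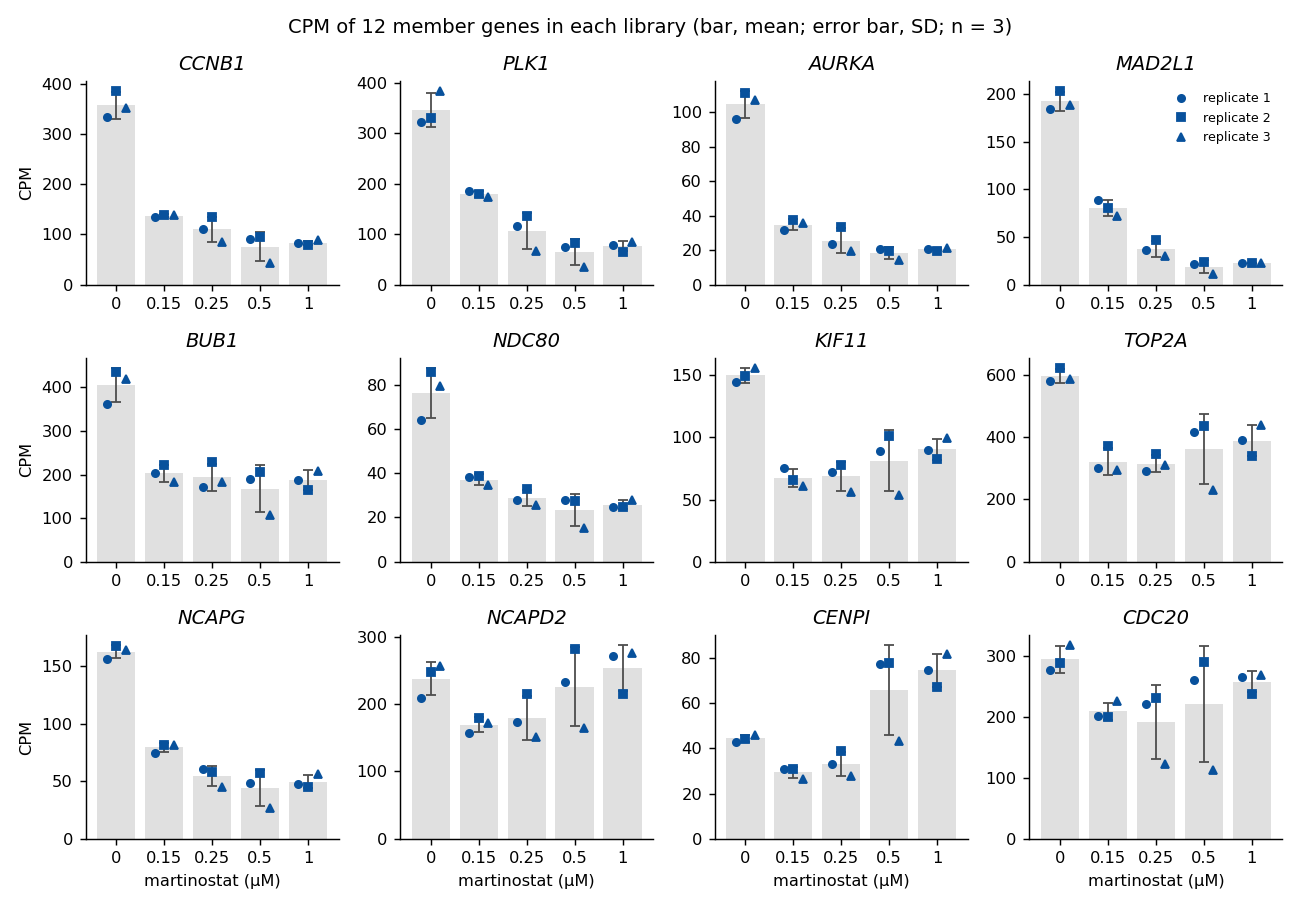
CPM (TMM scale) of 12 members against martinostat dose in µM, with bars as means, error bars as SD (n = 3) and points as single libraries marked by replicate number. MAD2L1 falls to between 22.5 and 23.1 CPM at 1 µM, BUB1 lies between 165 and 209 CPM there, and CENPI goes below and then above its untreated level.

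Condensin I, the ring that compacts mitotic chromosomes, had lower transcript levels of 4 of its 5 subunits at 1 µM. SMC2, one of its ATPase arms, stood at 154, 188 and 185 CPM in the untreated libraries, 96.2, 106 and 82.5 at 0.15 µM, 73.3, 89.4 and 84.8 at 0.25 µM, 75.6, 73.5 and 66.0 at 0.5 µM and 73.0, 61.4 and 78.9 at 1 µM. NCAPH, the subunit that closes the ring, had 121, 141 and 126 CPM in the untreated libraries, 47.6, 61.7 and 42.1 at 0.15 µM, 32.8, 45.2 and 35.3 at 0.25 µM, 40.5, 46.1 and 24.3 at 0.5 µM and 40.4, 40.5 and 41.7 at 1 µM, and NCAPG, a HEAT-repeat subunit, 156, 167 and 164 CPM in the untreated libraries, 74.4, 81.7 and 81.7 at 0.15 µM, 60.9, 58.2 and 45.1 at 0.25 µM, 48.7, 56.8 and 26.9 at 0.5 µM and 47.6, 45.1 and 55.9 at 1 µM. They were 2.47, 3.17 and 3.28-fold lower at 1 µM, and SMC4, the other ATPase arm, was 2.204-fold lower. NCAPD2, the second HEAT-repeat subunit, was at 209.8, 247 and 256 CPM in the untreated libraries, 157, 179 and 173 at 0.15 µM, 173, 214 and 151 at 0.25 µM, 232, 282 and 164 at 0.5 µM and 271, 215 and 276 at 1 µM. NCAPD2 was lower only at 0.15 µM (-0.49 ± 0.18, adjusted p = 0.0331), a call lost in 7 of 24 alternatives, and higher at 1 than at 0.15 µM (0.58 ± 0.18, adjusted p = 0.015). At 1 µM it differed from untreated by 0.09 ± 0.18 (adjusted p = 0.668), and on library totals it was called higher there.

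The ratio of NCAPG to NCAPD2 CPM within a library was 0.687 ± 0.0527 untreated and 0.468 ± 0.0102, 0.307 ± 0.0405, 0.192 ± 0.0243 and 0.196 ± 0.0183 at the rising doses (SD, n = 3). The groups do not overlap from untreated to 0.25 µM, or between 0.25 and 0.5 µM, and the ranges at 0.5 and 1 µM do. The pair was chosen after its values were seen, so no test is given. TOP2A, topoisomerase II alpha, which untangles chromosomes, had 582, 623 and 586 CPM in the untreated libraries, 300.0, 370.2 and 294 at 0.15 µM, 291, 344 and 310.0 at 0.25 µM, 417, 435 and 231 at 0.5 µM and 390.4, 339 and 438 at 1 µM. It was 1.86-fold lower at 0.15 µM and 1.53-fold lower at 1 µM (adjusted p = 0.000856 and 0.00935). The 1 µM call was lost in 3 of the 24 alternatives, library totals among them, and its log2 fold change ranged from -0.71 to -0.24.

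Genes of anaphase and of the release of cohesion had the smallest median fall of the role groups at 1 µM, -0.43 over 6 genes. Over the 5 without UBE2C the median was -0.67. Of the 6, 3 were called lower, against 27.5% of all genes tested. That share is near the 48.4% of genes of at least 10 CPM that were lower. The order of the role groups was not tested. CDC20, which activates the anaphase-promoting complex and is the target of Mad2, was at 276, 288 and 318 CPM in the untreated libraries, 201, 200.4 and 225 at 0.15 µM, 222, 232 and 122 at 0.25 µM, 260.0, 290.3 and 113 at 0.5 µM and 266, 238 and 269 at 1 µM. edgeR called CDC20 at no dose, with -0.49 ± 0.27 at 0.15 µM (adjusted p = 0.141) and -0.19 ± 0.27 at 1 µM (adjusted p = 0.549). It was called lower at 0.25 µM in 7 of the 24 alternatives, the replicate block and the fit without both replicate 3 libraries among them, and at 0.15 µM in 4. All 3 libraries at 0.15 µM and at 1 µM nevertheless lay below the untreated ones, and the replicate 3 libraries at 0.25 and 0.5 µM were far below the others of their groups. The ratio of PLK1 to CDC20 CPM within a library was 1.18 ± 0.0323 untreated and 0.297 ± 0.0198 at 1 µM (SD, n = 3, a pair chosen after its values were seen).

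ESPL1, which encodes separase, the protease that cuts cohesin, stood at 177, 192 and 199 CPM in the untreated libraries, 101, 107 and 91.6 at 0.15 µM, 57.0, 70.1 and 42.7 at 0.25 µM, 55.4, 68.4 and 39.0 at 0.5 µM and 74.3, 57.4 and 78.3 at 1 µM. It was lower at every dose, by -1.43 ± 0.20 at 1 µM (adjusted p = 3.53e-06). PTTG1, which encodes securin, the inhibitor of separase, had 89.5, 101 and 94.7 CPM in the untreated libraries, 97.9, 85.6 and 116 at 0.15 µM, 78.3, 75.8 and 54.0 at 0.25 µM, 60.6, 65.8 and 34.6 at 0.5 µM and 61.2, 61.0 and 56.8 at 1 µM. PTTG1 was not called at 0.15 µM (0.07 ± 0.20, adjusted p = 0.789) and was 1.59-fold lower at 1 µM (adjusted p = 0.00581). Of the shugoshins, which protect centromeric cohesin, SGO1 was lower at 1 µM (-0.78 ± 0.24). SGO2 had 68.3, 74.3 and 73.3 CPM in the untreated libraries, 57.4, 57.5 and 35.1 at 0.15 µM, 57.0, 73.7 and 53.1 at 0.25 µM, 89.1, 94.5 and 56.1 at 0.5 µM and 87.3, 78.6 and 84.7 at 1 µM. It was lower at 0.15 µM (-0.53 ± 0.20, adjusted p = 0.0348, lost in 7 of 24 alternatives), and the rise from there to 1 µM held in all of them (0.74 ± 0.20, adjusted p = 0.00534).

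In cytokinesis, ECT2, the exchange factor that activates RhoA at the furrow, was at 58.3, 66.4 and 64.6 CPM in the untreated libraries, 39.2, 35.9 and 28.7 at 0.15 µM, 26.7, 37.2 and 34.3 at 0.25 µM, 33.2, 34.3 and 27.3 at 0.5 µM and 37.1, 29.4 and 36.8 at 1 µM. ANLN, the anillin scaffold of the contractile ring, stood at 114, 126 and 117 CPM in the untreated libraries, 64.3, 64.1 and 46.5 at 0.15 µM, 47.2, 56.8 and 44.8 at 0.25 µM, 84.2, 85.6 and 45.2 at 0.5 µM and 85.3, 68.0 and 95.1 at 1 µM. ECT2 was 1.82-fold lower at 0.15 µM and 1.83-fold at 1 µM, and ANLN 2.04-fold and 1.44-fold. The ANLN call at 1 µM was lost in 9 of the 24 alternatives, DESeq2, RLE size factors and library totals among them, over which its log2 fold change ranged from -0.64 to -0.14. PRC1, at 4.87, 4.91 and 4.62 CPM in the untreated libraries, 3.02, 2.68 and 2.58 at 0.15 µM, 2.17, 2.18 and 1.48 at 0.25 µM, 2.78, 1.88 and 1.33 at 0.5 µM and 2.91, 1.93 and 1.85 at 1 µM, was 2.15-fold lower at 1 µM on the few counts given above, and its call at 0.15 µM was lost in 9 of the 24. The 3 genes of this group were lower at all 4 doses and edgeR called none between 0.15 and 1 µM, where ANLN had an adjusted p of 0.0523. ANLN was called higher at 1 than at 0.15 µM in 12 of the 24 alternatives, DESeq2, RLE size factors and the replicate block among them.

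FOXM1, a transcription factor of G2 and M phase genes, and MKI67, the gene of the proliferation antigen Ki-67, were both lower at 0.25, 0.5 and 1 µM. FOXM1 stood at 113, 105 and 134 CPM in the untreated libraries, 67.2, 67.0 and 72.3 at 0.15 µM, 44.9, 45.9 and 19.9 at 0.25 µM, 35.5, 41.4 and 12.9 at 0.5 µM and 34.9, 25.8 and 41.9 at 1 µM. Its change was -0.77 ± 0.37 at 0.15 µM (adjusted p = 0.097) and -1.78 ± 0.38 at 1 µM (adjusted p = 0.000864). DESeq2 and 4 other alternatives called it lower at 0.15 µM too, and the call between 0.15 and 1 µM was lost in 10 of the 24. MKI67 had 458, 466 and 485 CPM in the untreated libraries, 230.4, 309.5 and 265 at 0.15 µM, 223, 257 and 198 at 0.25 µM, 146, 158 and 84.8 at 0.5 µM and 154, 128 and 175 at 1 µM. MKI67 was 1.75-fold lower at 0.15 µM and 3.09-fold lower at 1 µM (step -0.82 ± 0.20, adjusted p = 0.00231).

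Between 0.15 and 1 µM the members took different courses. At 1 µM 22 were lower than at 0.15 µM and 6 were higher (23.1% and 21.5% of all genes tested), or 39.3% and 10.7% of the members. Among genes of at least 10 CPM the background was 33.9% lower and 22.8% higher. The 6 that rose were CENPI, KIF14, CKAP2, CKAP5, NCAPD2 and SGO2. Among the 22 were all 6 entry genes called at 1 µM, 3 of the 5 checkpoint genes and 3 of the 4 NDC80 subunits. Of these calls, those of PLK4, BUB1B and NDC80 were each lost in 8 of the 24 alternatives and that of NUF2 in 9. Those of MAD2L1, BUB3 and SPC25 were lost in none. In the 22 the median level was 53.4% of untreated at 0.15 µM, 27.3% at 0.5 µM and 31.0% at 1 µM. In the 6 it was 62.2%, 92.7% and 99.7%. Both groups were picked by the test between 0.15 and 1 µM on these libraries, which set the direction of their medians between those doses. A further 19 members were lower at 0.15 and at 1 µM with no call between, BUB1, TTK, CENPA, TPX2 and TOP2A among them. The call of 22 lower depended on single libraries: it was 13 without 0.15 µM replicate 2, 14 without 1 µM replicate 1 and 11 without 1 µM replicate 2, and the 6 higher became 3 without 1 µM replicate 3. The fit on RLE size factors, DESeq2 and the factors from genes of at least 10 CPM gave 12, 14 and 14 lower. Each of these fits called 9 higher, and library totals gave 23 lower and 9 higher. With RLE size factors the 12 were 21.4% of the members, near the 20.3% of all genes that were lower in that fit. The 9 were 16.1% of the members, against 24.6% of all genes. Some alternatives also called ANLN (12 of 24), CDC25C (10), KIF11 (9), TOP2A (1) and CDC20 (1) higher. Others called CDCA8 (5), BIRC5 (3) and SPC24 (3) lower.

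**Figure D4:**
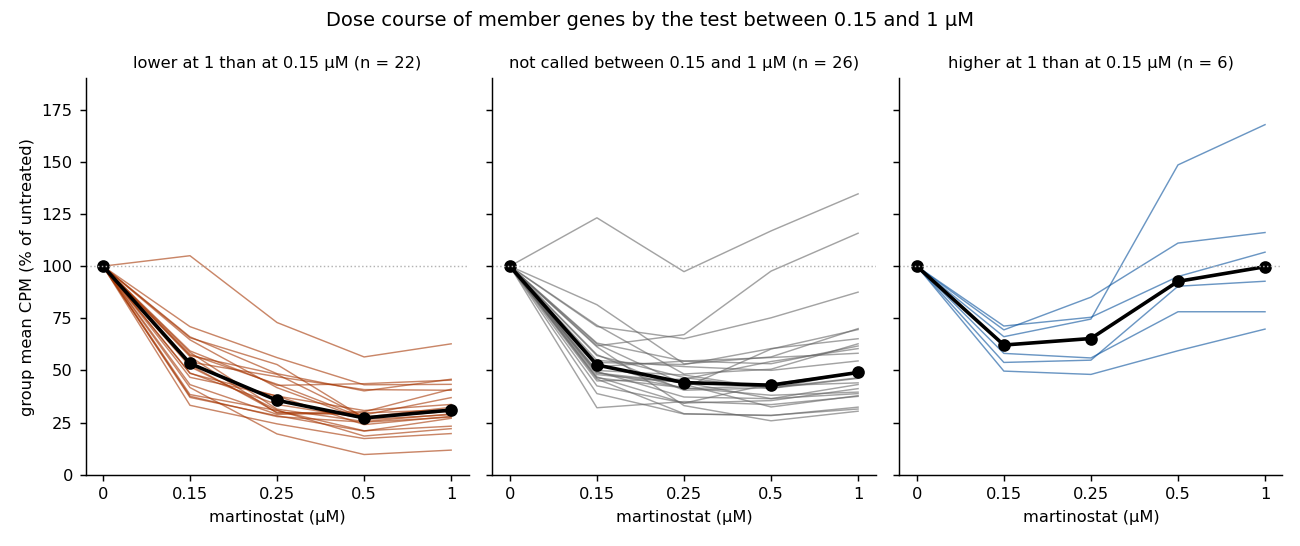
Group mean CPM as % of the untreated mean (y axis) against martinostat dose in µM for 54 members, without NUSAP1 and UBE2C, split by the test between 0.15 and 1 µM. Thin lines are genes and the black line is the median. The median of the 22 genes that fell further ends at 31.0%, and that of the 6 that rose at 99.7%. The split uses the same libraries, so it sets the direction of each median between 0.15 and 1 µM.

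The steps between neighbouring doses held fewer calls. From 0.15 to 0.25 µM 6 members (10.7%) were lower and 0 higher, against 7.32% and 4.96% of all genes. The 6 were PLK4, MAD2L1, KIF18B, KIF23, SMC4 and ESPL1. Another 14 members were lower there only at an unadjusted p under 0.05, 0 were higher on that basis, and DESeq2 called 4 lower and 0 higher. From 0.25 to 0.5 µM 10 members (17.9%) were lower and 3 (5.36%) higher, against 16.0% and 14.4% of all genes, so the share lower was near that of all genes. Among genes of at least 10 CPM, 15.2% were lower and 4.64% higher in the first step. In the second these shares were 21.9% and 20.5%. The shares of the members lay below them in both steps. Without replicate 3 at both 0.25 and 0.5 µM, 11 members were lower and 0 higher in the first step, and 9 lower and 11 higher in the second. Leaving out replicate 3 at 0.5 µM alone gave 15 members lower in the first and 3 lower with 12 higher in the second. From 0.5 to 1 µM edgeR called 0 members and DESeq2 0, with 0.0% of all genes lower and 0.0% higher. At an unadjusted p under 0.05 that step held 372 of the 23711 genes and 2 members, BUB1B and KIF18B, both higher at 1 µM. The group mean was lowest at 0.5 µM in 29 members and at 1 µM in 1, but without both replicate 3 libraries it was lowest at 0.5 µM in 7 and at 1 µM in 21. Over the 5 groups together, 50 of the 56 members varied, and 73.6% of all genes did.

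DNA replication genes, a list of 45 that act in S phase, give the nearest comparison. At 1 µM 36 of them were lower and 0 higher (median -1.27), and at 0.15 µM 38 were lower and 0 higher (median -0.94), close to the values of the mitotic genes. POLE2, a subunit of DNA polymerase epsilon, changed by -3.12 ± 0.21 and RFC3, of the clamp loader, by -2.68 ± 0.17 at 1 µM. Between 0.15 and 1 µM 22 of the 45 replication genes fell and 7 rose (median -0.41), against 22 and 6 of the 56 mitotic genes (median -0.29). The courses between neighbouring doses up to 0.5 µM differed. From 0.15 to 0.25 µM 31 of the 45 replication genes fell (median -0.85), against 6 of the 56 mitotic genes (median -0.33). From 0.25 to 0.5 µM 2 replication genes fell and 15 rose (median 0.35), against 10 and 3 mitotic genes (median -0.05). Without the replicate 3 libraries that stood apart, the first step held 32 replication and 11 mitotic genes that fell, and the second 23 and 11 that rose. On library totals the first step had 29 and 3 that fell, and the second 14 and 2 that rose. The difference between the lists was not tested.

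Other genes of the same machinery were counted at 1 µM, where 27.5% of all genes tested and 48.4% of those of at least 10 CPM were lower. Of 19 further inner kinetochore genes, 18 were lower (median -1.34), CENPM by -1.85 ± 0.45 and CENPX by -1.82 ± 0.27. Of 16 further outer kinetochore and checkpoint genes, 9 were lower (median -0.75), a share near that of genes of at least 10 CPM, led by PMF1 (-2.92 ± 0.25), a subunit of the MIS12 complex, and TRIP13 (-2.71 ± 0.23), the ATPase that remodels Mad2. Among 17 genes of the anaphase-promoting complex and its regulators 12 were lower and 1 higher, ANAPC2 (0.58 ± 0.19). FBXO5, the inhibitor Emi1, went from 86.3 to 8.06 CPM (-3.42 ± 0.22), ANAPC1, a scaffold subunit, changed by -2.28 ± 0.18, and FZR1, the Cdh1 activator that acts after CDC20, stood at 90.0 and 106 CPM (adjusted p = 0.265). All 13 cohesin genes and loaders were lower, STAG2 by -2.39 ± 0.18 and RAD21, the subunit that separase cuts, by -1.51 ± 0.14. The 3 subunits particular to condensin II were lower too, NCAPD3 by -1.01 ± 0.15 and NCAPH2 by -0.94 ± 0.31.

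Of 15 other mitotic kinases and entry regulators, 10 were lower (median -1.25). CCNA2, cyclin A2, went from 428 to 61.3 CPM (-2.80 ± 0.31), and CDC25A, the third CDC25 phosphatase, from 186 to 23.4 CPM (-2.99 ± 0.27), whereas CDC25B and CDC25C had not been called. Of 11 other motors and cytokinesis genes 7 were lower, with ARHGAP11A at -2.12 ± 0.18 and KIF15 at -1.93 ± 0.20. Among the 11 genes of the MuvB, MYB and DREAM regulators, which act at CHR promoters, 8 were lower and 1 higher, LIN37 (2.13 ± 0.29). MYBL2, B-Myb, went from 555 to 105 CPM (-2.40 ± 0.39), LIN9 changed by -1.24 ± 0.20, E2F4 by -1.41 ± 0.17, E2F5 by -2.42 ± 0.21 and TFDP1 by -2.41 ± 0.17, while RBL2, the pocket protein p130, stood at 26.3 and 27.6 CPM (adjusted p = 0.869).

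The promoter letters differed between the mitotic and the replication genes, and the members with and without a CHR had like medians. Of 39 replication genes with a RefSeq promoter, 1 (2.56%) held a CHR, against 26 of 49 members. An E2F motif (TTTCCCGC, TTTGGCGC, TTTCGCGC or TTTGCCGC on either strand) was in 14 replication genes (35.9%), in 3 members (6.12%) and in 3.40% of all genes. At least 2 CCAAT boxes were in 49.0% of the members, 28.2% of the replication genes and 11.5% of all. Some genes have more than one RefSeq start and so more bases searched, 64 windows for the 49 members. At 1 µM 21 of the 26 members with a CHR were lower, with a median log2 fold change of -1.12, and 18 of the 23 without one, with a median of -1.13. The 4 promoters printed above belong to genes at -0.19 (CDC20), -1.83 (CCNB2), -1.63 (MKI67) and -1.43 (ESPL1) log2 units at 1 µM.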

How the data were processed

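The sources used here state that poly(A) RNA was made into directional paired-end libraries, reads were trimmed (Trim Galore 0.6.10), aligned to hg38 (HISAT2 2.2.1, SAMtools 1.21) and counted per GENCODE gene (featureCounts 1.5.3). The strand setting of the counting is not given in the sources used here. The deposited table holds raw counts, not normalised, for 60649 genes in 15 libraries. The authors' FPKM files were not used here.

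Gene IDs were paired with symbols through GENCODE 44. The 56 members, their role groups and the other gene lists were chosen with earlier results of these data known. All 56 members could be named, and values in every library were given for central genes of each role and for the lowest and highest of each role at 1 µM. From the other lists, the 2 genes with the largest called change and 7 regulators were named. A pair of cell type markers is not reported here.

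Counts were filtered with filterByExpr, scaled by TMM and tested with edgeR 4.0.16 (quasi-likelihood, robust) in R 4.3.3, with all 15 libraries in 1 fit and Benjamini-Hochberg adjustment over 23711 genes. No 2 libraries of a group agreed within sampling noise. The code was tested on simulated data. In all, 24 alternatives were computed, DESeq2 among them. Replicate numbers were checked as pairs: deviations of same-numbered libraries correlated above 0.1 in all 3 pairs in 1 of 10 pairs of groups (0.25 and 0.5 µM). The main fit took no numbers as pairs, also between 0.25 and 0.5 µM. A fit with a replicate block was among the alternatives. Promoters are RefSeq sequences.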

Additional observations from a re-analysis of the deposited data

Results flagged for a closer look

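CENPI was singled out because it was called lower at 0.15 µM and higher at 1 µM against untreated cells, and was called between these doses. The log2 fold change at 1 over 0.15 µM was 1.34 ± 0.19 (adjusted p = 1.13e-05, edgeR). All 3 libraries at 1 µM lay above all 3 at 0.15 µM. The call between the doses was part of the rule that picked CENPI. Neither that call nor the gap between the libraries is therefore separate support. Groups of 3 libraries were too small for a search for single outlying libraries.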

How the results depend on the processing

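No called change of a member against untreated cells or between doses turned direction in the 24 alternatives, of which leaving out replicate 3 at both 0.25 and 0.5 µM was chosen after seeing the data. Of the member calls, 33 of 45 at 0.15 µM, 42 of 47 at 0.25 µM, 41 of 47 at 0.5 µM, 38 of 46 at 1 µM and 14 of 28 between 0.15 and 1 µM were lost in none. Counts of called members that moved by more than 1.5 times were these. For 1 against 0.15 µM, 14 were lower with DESeq2, 12 with RLE size factors and 14 with factors from genes of at least 10 CPM, and leaving out 1 library gave 11 to 25 lower and 3 to 9 higher, while leaving out both replicate 3 libraries gave 11 higher. For 0.25 against 0.15 µM, 3 were lower with RLE factors, library totals, factors from genes of at least 10 CPM, at least 10 counts in every library or only the libraries compared, 10 with no filter and 11 without both replicate 3 libraries, and 3 to 15 when 1 library was left out. For 0.5 against 0.25 µM, 6 were lower with RLE factors and 3 with only the libraries compared, 3 to 9 when 1 library was left out, and 11 were higher without both replicate 3 libraries (1 to 12 leaving out 1). Against untreated cells, members called higher numbered 2, 1, 3 and 4 at the 4 rising doses on library totals, and 1, 3 and 4 at 0.15, 0.5 and 1 µM with factors from genes of at least 10 CPM. At 1 µM they were 3 with at least 10 counts in every library, 3 with only the libraries compared and 2 with no filter. They were 1 at 0.15 µM with only the libraries compared, and 1, 3 and 2 at 0.15, 0.5 and 1 µM without both replicate 3 libraries. Leaving out 1 library gave 0 to 2 higher at 0.5 µM and 1 to 2 at 1 µM. The causes were not tested. A fit with the replicate block gave 45, 50, 46 and 45 lower at the 4 doses and 21 lower with 8 higher for 1 against 0.15 µM, and 10 lower with 3 higher for 0.5 against 0.25 µM, and moved no count by more than 1.5 times. UBE2C, NUSAP1 and PRC1 averaged under 200 counts.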
